A study of Homo sapiens with 8 samples.

Results

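The nuclear-encoded subunits of the mitochondrial respiratory chain and ATP synthase were followed across A549 cells, an established human lung adenocarcinoma line, in which the long non-coding RNA AFAP1-AS1 was overexpressed or knocked down. Genes were taken by symbol: NDUFA, NDUFB, NDUFC, NDUFS and NDUFV (without the NDUFAF assembly factors) for complex I, SDHA to SDHD for complex II, UQCR for complex III, COX4 to COX8 for complex IV and ATP5 for complex V. This gave 86 of the 17056 genes in the table, of which 39 fell in complex I, 4 in complex II, 9 in complex III, 15 in complex IV and 19 in complex V. The series holds 8 RNA-seq libraries of total RNA, 2 in each of 4 groups. The first pair of groups was an A549 vector control (titled vector) and A549 overexpressing AFAP1-AS1 (titled OE). The second was a knockdown control (titled ASONC) and knockdown of AFAP1-AS1 (titled ASO). The labels give no treatment time, construct, clone or sequence of the knockdown reagent. AFAP1-AS1 is not analysed here, so its own level gives no check of the labels.

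The respiratory chain sits in the inner mitochondrial membrane. Complexes I and II take electrons from NADH and succinate and pass them through coenzyme Q, complex III, cytochrome c and complex IV to oxygen, while complexes I, III and IV pump protons. Complex V, the ATP synthase, uses the proton gradient to make ATP. Most subunits are encoded in the nucleus, translated in the cytosol and imported, and a few core subunits of complexes I, III, IV and V are encoded in mitochondrial DNA. The latter are not analysed here, and neither are the muscle and lung isoforms COX6A2 and COX4I2. In these bulk samples fewer cells with a transcript and less of it per cell cannot be told apart.

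Values are FPKM (fragments scaled to transcript length and to sequencing depth), and the steps between low values allowed whole reads to be recovered, between 33359120 and 37172055 per library. Replicates correlated across genes with r of 0.997 to 0.998. The knockdown control libraries stood apart, since 1435 and 1341 genes were at 0 there and 2205 to 2327 elsewhere. Summed FPKM was 371927 to 379733 in the vector control and overexpression libraries and 421591 to 437924 in the knockdown control and knockdown libraries. The epithelial and A549 markers KRT7, KRT8, KRT18, AKR1B10 and ALDH1A1 lay between 956.3 and 2026.3 FPKM, AKR1C1 between 132.0 and 182.3, while EPCAM reached at most 0.862 and CDH1 at most 4.42. The leukocyte marker PTPRC was at 0 in 7 of 8 libraries, and the fibroblast marker DCN and the muscle marker CKM in 5 each. Of the same lists, CD68 ran from 48.8 to 90.1 FPKM and CD14 from 1.57 to 2.7. COL1A1 reached 2.5, ACTN2 0.565, LUM 0.147 and COL1A2 0.133, and the endothelial markers VWF, PECAM1 and CDH5 reached 0.846, 0.49 and 0.352.

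Subunit transcripts were abundant in A549 cells. Among the 80 subunit genes that averaged 1 FPKM or more and entered the test, the mean level in the vector control ran from 5.02 FPKM for NDUFC2, a membrane-arm subunit of complex I, to 485.5 FPKM for ATP5F1B, the catalytic beta subunit of ATP synthase. Their median was 62.9 FPKM, against 9.26 FPKM over all 10648 genes tested. Recovered reads per library ran from 215 for UQCRHL to 39269 for ATP5F1B. By complex, the median level in the vector control was 53.4 FPKM for complex I, 48.0 for complex II, 68.5 for complex III, 135.0 for complex IV and 84.2 for complex V. Summed over all 86 genes, the level was 7335.9 and 7623.3 FPKM in the vector control, 7467.9 and 7825.3 with overexpression, 11136.4 and 11315.8 in the knockdown control and 10686.2 and 10484.0 after knockdown. The vector control and overexpression libraries overlapped, and both stood below all 4 libraries of the other pair. As a share of recovered reads, the 86 genes took 0.822% to 0.874% in the first pair of groups and 1.126% to 1.185% in the second.

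The isoforms present were those of most non-muscle tissues. COX4I1, COX6A1, COX7A2 and COX8A, the common isoforms of complex IV subunits, had 263.6 to 407.4, 310.2 to 509.5, 46.1 to 79.0 and 203.2 to 372.8 FPKM over the 8 libraries. COX6B2 and COX8C, which are best known from testis, did not exceed 0.165 and 0.0518 FPKM. COX7A1, the heart and muscle isoform, was above 0 in 1 overexpression and 1 knockdown library (0.0782 and 0.0826 FPKM). COX7B2 (at most 0.0272) and ATP5MGL (at most 0.139) were also near 0. With NDUFA4L2, these are the 6 genes that did not pass the filter. NDUFA4, long counted with complex I and now placed in complex IV, ranged from 47.4 to 87.9 FPKM.

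**Figure D1:**
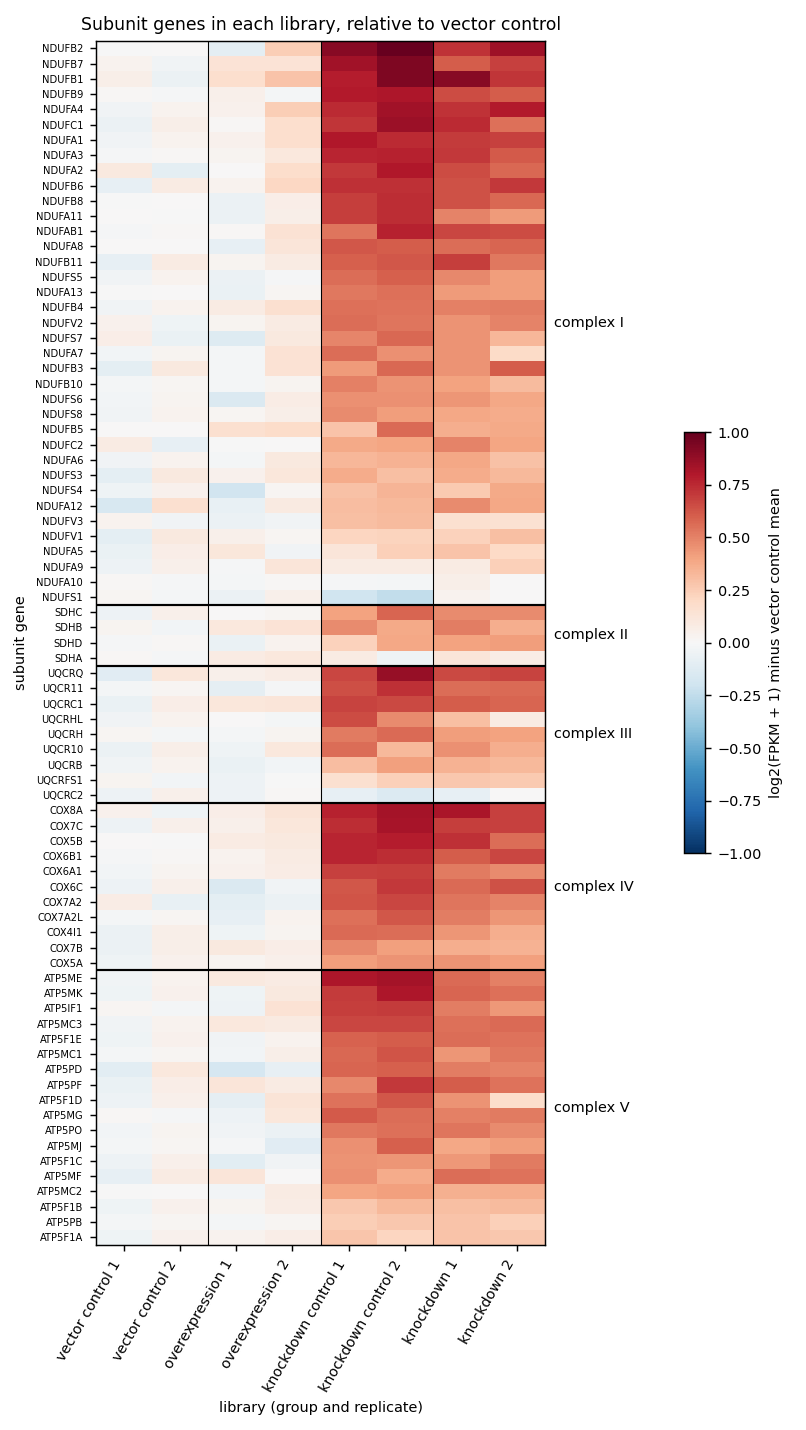
Each cell gives log2(FPKM + 1) of a subunit gene in 1 library minus its vector control mean, for 79 of the 80 tested genes (rows, by complex) and 8 libraries (columns). The vector control and overexpression columns are pale, and the knockdown control and knockdown columns are red in nearly every row except NDUFS1, NDUFA10, SDHA and UQCRC2.

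The first question was whether gain of AFAP1-AS1 moves these genes, and none was called. Of the 80 genes tested, 0 were called higher (against 0.0657% of all genes tested) and 0 lower (against 0.0%) with overexpression, at a limma adjusted p below 0.05. At an unadjusted p below 0.05 there were 10 of 80, against 738 of all 10648 genes tested. Voom on recovered reads called 0, against 0.207% higher and 0.047% lower over all genes. The median log2 fold change was 0.03 against 0.002 over all genes. The smallest adjusted p belonged to NDUFB1, a small accessory subunit of the complex I membrane arm. NDUFB1 had 94.5 and 87.3 FPKM in the vector control and 102.0 and 111.0 with overexpression, without overlap, a log2 fold change of 0.23 (SE 0.07, limma adjusted p = 0.461). UQCRC1, a core protein of complex III, gave 0.12 (SE 0.04, limma adjusted p = 0.593), SDHB, the iron-sulfur subunit of complex II, 0.12 (SE 0.05, limma adjusted p = 0.655), COX8A 0.10 (SE 0.05, limma adjusted p = 0.742) and ATP5MC3, a membrane ring subunit of ATP synthase, 0.10 (SE 0.04, limma adjusted p = 0.593). Groups of 2 cannot give an exact two-sided permutation p below 0.333, so calls rest on the fit across all genes. The labels do not say that replicates were separate cultures, and the p-values therefore reflect only how far these libraries spread, possibly for technical reasons.

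Most subunit genes differed between the 2 control groups. In the knockdown control 74 of the 80 subunit genes were called higher than in the vector control, against 36.8% of all genes tested, and 1 was called lower, against 31.8% (limma, adjusted p below 0.05). The median log2 fold change was 0.54 (1.46-fold on the FPKM + 1 scale), against 0.04 over all genes. The calls took in every complex, with 34 of 38 genes higher in complex I (median 0.54), 3 of 4 in complex II (0.37), 8 of 9 in complex III (0.54), 11 of 11 in complex IV (0.66) and 18 of 18 in complex V (0.58). The labels do not say whether the 2 pairs of groups were grown, treated or sequenced together, so treatment with the knockdown control reagent and any difference between the pairs cannot be told apart. When every library was rescaled to a common FPKM total (TPM), the median of all genes moved from 0.04 to -0.15 and the share of calls that were higher, over all genes, from 53.6% to 31.7%. The subunit genes then had a median of 0.33, with 64 of 80 higher and 4 lower, against 22.2% and 47.9% of all genes.

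**Figure D2:**
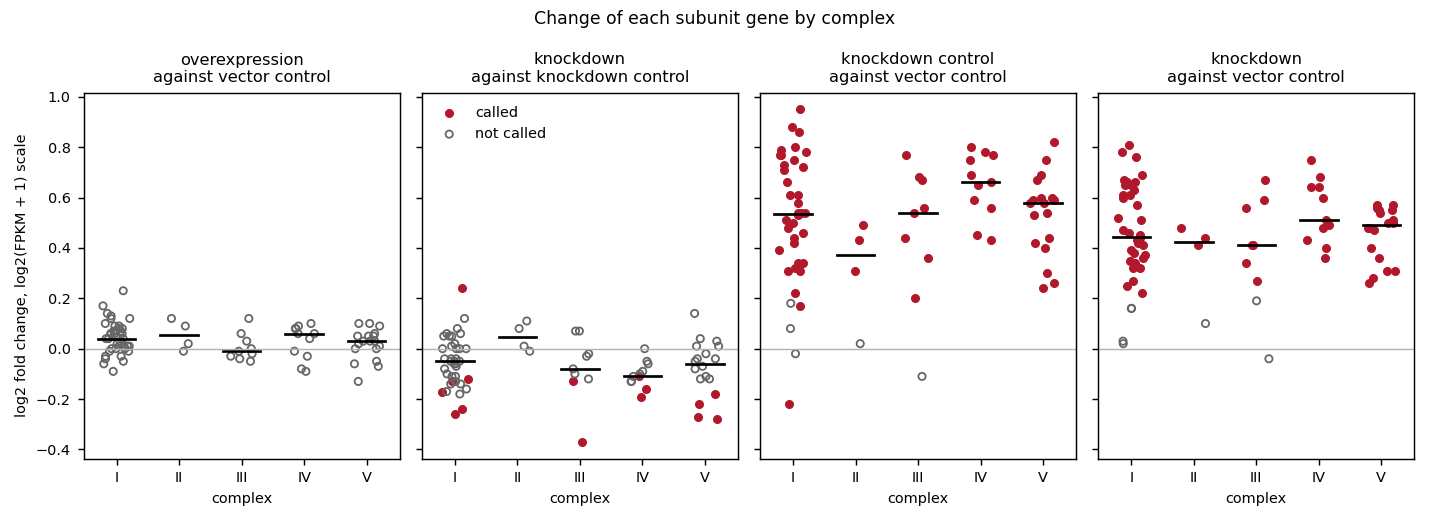
Log2 fold change of each tested subunit gene (points) by complex, in the 4 comparisons. Filled points passed the limma threshold, open points did not, and black bars are medians. The overexpression points scatter around 0, while medians in the 2 comparisons against the vector control on the right lie between 0.37 and 0.66.

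Within complex I the accessory subunits had the higher median, and this order was not tested. The 7 nuclear core subunits, which carry the flavin and iron-sulfur clusters and the quinone site, had a median of 0.34 in the knockdown control against the vector control, with 6 called higher and 1 lower. The 31 accessory genes had a median of 0.58, with 28 higher, and all 11 NDUFB genes, which encode membrane-arm subunits, were higher (median 0.72). These medians are as tested, without the correction for length and GC content, which took the complex I median from 0.54 to 0.23. With it not all NDUFB genes stayed higher, and NDUFB10 was called lower (-0.16, limma adjusted p = 0.00259). NDUFB2 had 89.4 and 89.9 FPKM in the vector control, 83.6 and 106.6 with overexpression, 169.0 and 179.7 in the knockdown control and 148.3 and 162.0 after knockdown. The last 2 groups lay wholly above the first 2, and the control difference of NDUFB2 was 0.95 on the log2 scale (SE 0.09, limma adjusted p = 1.31e-06), the highest in the set as tested. NDUFB7, another membrane-arm subunit, had 26.2 and 24.8 FPKM in the vector control against 46.4 and 49.5 in the knockdown control, a log2 fold change of 0.88 (SE 0.05, limma adjusted p = 3.75e-08), which was not called with the length and GC correction described below (0.01, limma adjusted p = 0.832). NDUFV1, which binds NADH and the flavin, had 58.0 and 66.6 FPKM against 72.1 and 72.5, a smaller step of 0.22 (SE 0.06, limma adjusted p = 0.00526) that was not called with that correction (-0.02, limma adjusted p = 0.753). The cluster-bearing NDUFS7 and NDUFS8 gave 0.53 (SE 0.08) and 0.44 (SE 0.04).

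NDUFS1, the largest nuclear-encoded core subunit and the carrier of several iron-sulfur clusters, went the other way. It had 12.2 and 11.8 FPKM in the vector control, 11.5 and 12.5 with overexpression, 10.3 and 9.96 in the knockdown control and 12.3 and 12 after knockdown. The knockdown control libraries were the lowest of the 8, without overlap with any other group. No other tested subunit gene was called lower in that comparison (-0.22, SE 0.06, limma adjusted p = 0.00605). NDUFS1 has the longest length implied by the FPKM steps (11909 bases), while by exon length SDHC is longer (14160 against 12268 bases). With the correction for exon length and GC content NDUFS1 was called higher instead (0.19, limma adjusted p = 0.0194). Of the other complex I genes, NDUFA10 (-0.02, limma adjusted p = 0.771), NDUFA9 (0.08, limma adjusted p = 0.334) and NDUFA5 (0.18, limma adjusted p = 0.0691) did not pass.

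In complex II the flavin subunit did not pass and the other 3 genes did. SDHA, which oxidises succinate, had 40.3 and 39.7 FPKM in the vector control, 42.4 and 43.0 with overexpression, 42.5 and 38.8 in the knockdown control and 43.7 and 42.1 after knockdown. Both control groups overlapped, with a difference of 0.02 (SE 0.05, limma adjusted p = 0.692). SDHB had 76.7 and 74.0 FPKM in the vector control against 105.0 and 98.5 in the knockdown control, without overlap (0.43, SE 0.05, limma adjusted p = 1.38e-05). SDHC and SDHD, which anchor the complex in the membrane, gave 0.49 (SE 0.06) and 0.31 (SE 0.06). SDHA has near-identical pseudogene copies, so its counts are uncertain.

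Complex III showed the same kind of spread. UQCRC2, a core protein, had 94.1 and 100.5 FPKM in the vector control and 91.7 and 88.6 in the knockdown control. The groups did not overlap, but the difference of -0.11 did not pass (SE 0.05, limma adjusted p = 0.0579). Its partner UQCRC1 had 70.7 and 77.3 FPKM against 118.9 and 117.7 (0.67, SE 0.04, limma adjusted p = 9.98e-08). UQCRQ, a small ubiquinone-binding subunit, had 37.4 and 43.9 FPKM in the vector control against 64.8 and 74.9 (0.77, SE 0.07, limma adjusted p = 2.39e-06). UQCRFS1, the Rieske iron-sulfur protein, rose by 0.20 (SE 0.04, limma adjusted p = 0.0012). UQCRHL is a near-identical copy of UQCRH, the hinge protein, and reads of the 2 cannot be assigned with certainty.

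All 11 tested complex IV genes were higher in the knockdown control, from 0.43 for COX5A to 0.80 for COX8A, though these 2 were not called with the length and GC correction (0.06 and -0.004, limma adjusted p = 0.118 and 0.952). COX8A, the common isoform of a small accessory subunit, had 215.6 and 203.2 FPKM in the vector control, 218.7 and 228.9 with overexpression, 357.5 and 372.8 in the knockdown control and 369.0 and 336.4 after knockdown. The last 2 groups overlapped each other and lay above the first 2. COX6B1, which sits at the interface of the complex IV dimer, had 470.2 and 479.1 FPKM against 803.6 and 793.6, with the smallest adjusted p of the set (0.75, SE 0.03, limma adjusted p = 5.64e-09). COX4I1, the regulatory subunit that binds ATP, gave 0.56 (SE 0.04, limma adjusted p = 4.18e-07).

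In complex V the 5 ATP5F1 genes of the catalytic head had a median of 0.44 as tested and the other 13 a median of 0.59, and this order was not tested. With the length and GC correction the 2 sets covered much the same range, from -0.03 to 0.85 in the head and from -0.03 to 0.95 in the others. ATP5F1A, the alpha subunit, had 56.5 and 59.8 FPKM in the vector control and 70.5 and 67.5 in the knockdown control, the smallest step of the complex as tested (0.24, SE 0.04, limma adjusted p = 0.000317). With the length and GC correction it had 0.51 (limma adjusted p = 3.47e-06), above the corrected median of the complex (0.36). ATP5F1B had 471.9 and 499.1 FPKM against 586.7 and 606.3 (0.30, SE 0.04, limma adjusted p = 1.44e-05), a call that ended with the length and GC correction (-0.03, limma adjusted p = 0.327). ATP5ME, a small membrane subunit at the dimer interface, had 165.9 and 173.4 FPKM in the vector control, 181.6 and 180.0 with overexpression, 297.6 and 302.2 in the knockdown control and 252.3 and 241.3 after knockdown. Its groups did not overlap in any of the 4 comparisons, and its control difference was 0.82 (SE 0.04, limma adjusted p = 6.04e-09), the largest of the complex as tested. ATP5ME also has the shortest length implied by the FPKM steps (306 bases), though not the shortest exon length (940 bases, against 507 for COX8A). Its difference was 0.19 with the exon length and GC correction, where ATP5MC3 had 0.95 and ATP5F1E 0.85. With the length from the FPKM steps in the correction it was -0.11. ATP5IF1, the inhibitor that blocks ATP hydrolysis when respiration fails, had 70.0 and 68.1 FPKM against 111.9 and 112.5 (0.69, SE 0.06, limma adjusted p = 5.62e-07).

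**Figure D3:**
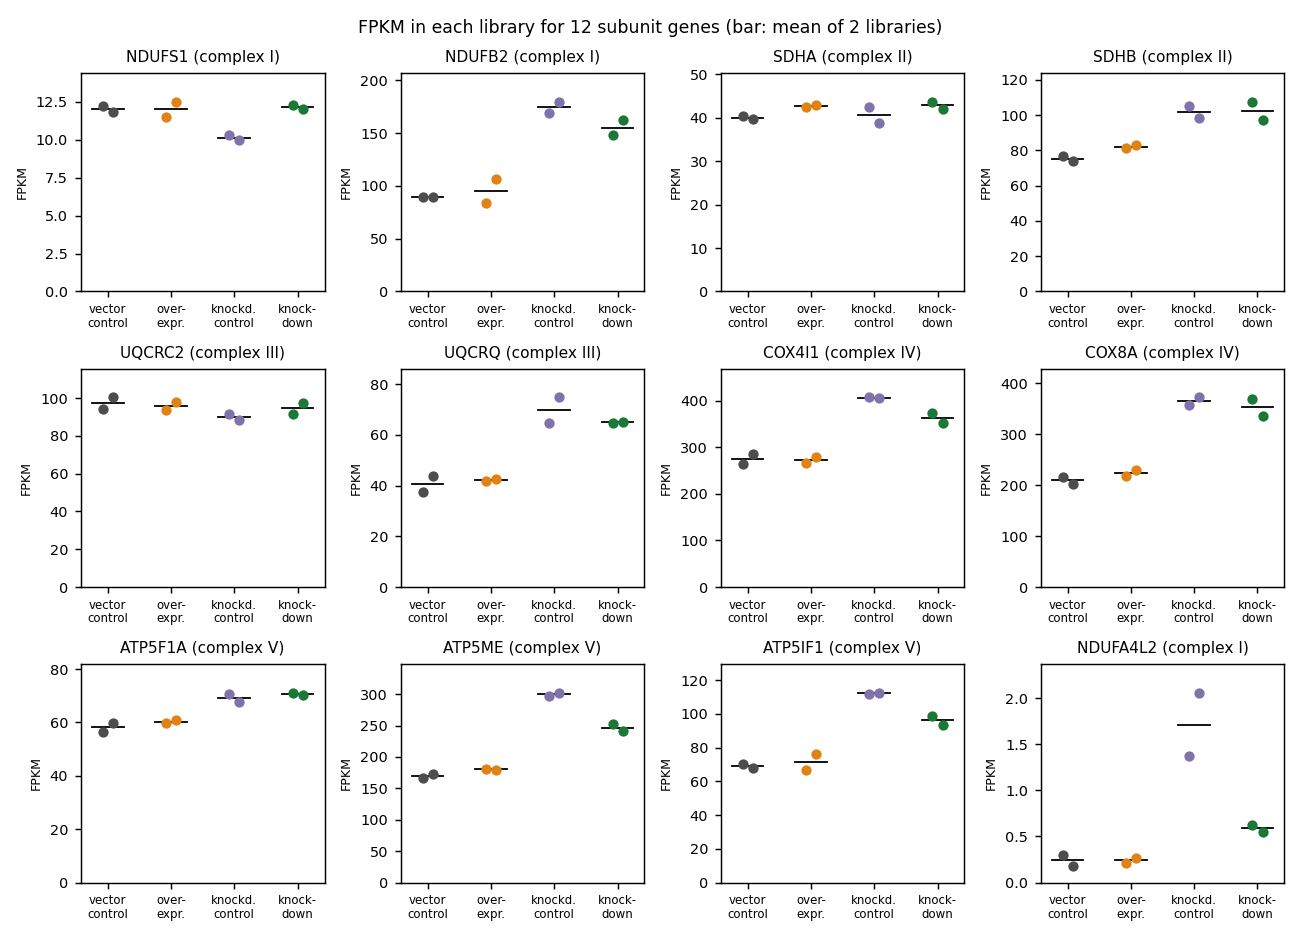
FPKM (linear axis from 0) of 12 subunit genes in each library, by group, with points for libraries and bars for the mean of 2. NDUFB2, UQCRQ, COX8A and ATP5ME stand higher in the knockdown control and knockdown libraries, SDHA and UQCRC2 stay near 40 and 95 FPKM, NDUFS1 is lowest in the knockdown control and NDUFA4L2 is highest there.

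Gene length and GC content moved with this difference across the whole table. The length implied by the FPKM steps had a median of 1162 bases in the 80 subunit genes, from 306 for ATP5ME to 11909 for NDUFS1, and of 3912 bases over all genes tested. GC content was similar (medians 47.5% and 48.3%). Across genes, which are not independent and share all 8 libraries, the control difference had a Spearman rho with length of -0.50 in the subunit genes and -0.52 over all genes. Its rho with GC content was 0.14 in the subunit genes and 0.52 over all genes. Under 1000 bases, 35 of 35 subunit genes and 88.7% of all 423 genes were called higher in the knockdown control, with medians of 0.60 and 0.58. From 1000 to 2500 bases the shares were 96.4% of 28 and 63.6% of 2415, with medians of 0.54 and 0.30. Over 2500 bases they were 70.6% of 17 and 25.7% of 7809, with medians of 0.26 and -0.07. The medians were thus close for short genes, and higher for subunit genes than for all genes in both longer classes, a difference that was not tested.

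After a correction of each library for GENCODE exon length and GC content, 59 of the 80 genes were higher in the knockdown control and 1, NDUFB10, was lower, with a median of 0.30, and 55 of the 74 higher calls were among the 59. Over all genes 29% were then higher and 30.1% lower. By complex, 25 of 38 genes were higher in complex I, 3 of 4 in complex II, 7 of 9 in complex III, 9 of 11 in complex IV and 15 of 18 in complex V. NDUFB2 had 0.98 and ATP5MC3 0.95, while COX8A had -0.004 and NDUFB7 0.01. Exon length and the length implied by the FPKM steps had a rho of 0.768 across genes, and differed widely for some. NDUFB2 has 4447 exon bases against 470 from the steps, ATP5MC3 6780 against 2808, NDUFB7 531 against 1332 and COX8A 507 against 500. With the length taken from the FPKM steps in place of the exon length, 50 were higher and 13 lower, with a median of 0.20, against 28.7% and 30.1% of all genes. In the subunit genes the corrections changed the sign of both relations: rho with length became 0.21 and 0.52 and rho with GC, 0.14 as tested, became -0.68 and -0.71 with the exon and step lengths. The part of library preparation, RNA quality or another step related to length or GC content in the difference was not tested.

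**Figure D4:**
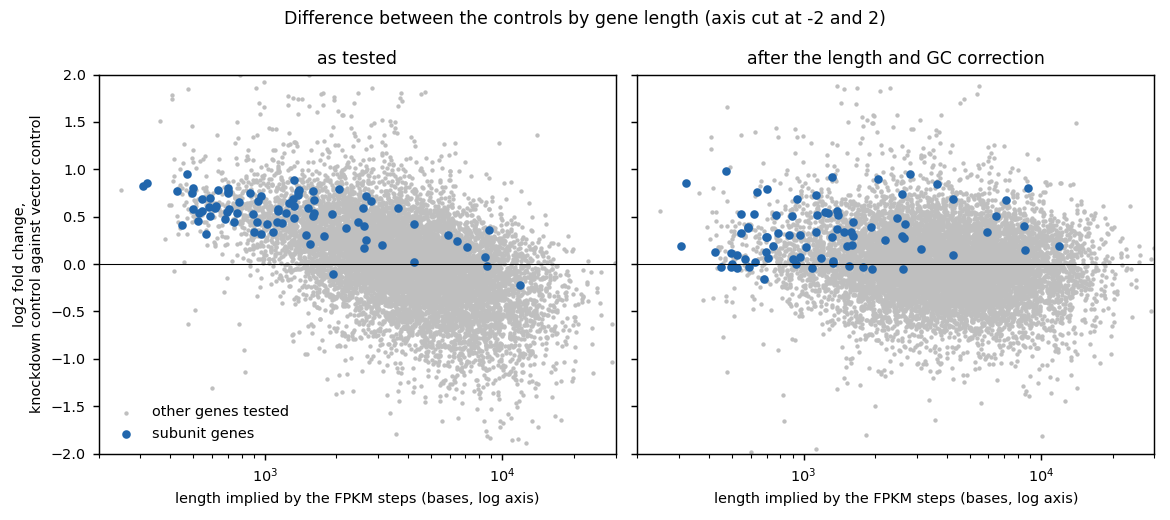
Log2 fold change between the 2 controls against the length implied by the FPKM steps (log axis), for the 80 subunit genes (blue) and the other genes tested (grey), as tested (left) and after the exon length and GC correction (right). On the left the cloud slopes down from short to long genes (rho -0.52 over all genes), and on the right it lies nearly level, with most blue points above 0.

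Loss of AFAP1-AS1, compared with its own control, went with small decreases in a minority of subunit genes. With knockdown 14 of the 80 genes were called lower than in the knockdown control, against 10.9% of all genes tested, and 1 was called higher, against 11.3% (limma, adjusted p below 0.05). The median was -0.06, against 0.02 over all genes. The 14 were NDUFA11, NDUFA13, NDUFB7, NDUFB9 and NDUFS5 in complex I, UQCRH and UQCRHL in complex III, COX4I1, COX6A1 and COX6B1 in complex IV, and ATP5F1D, ATP5IF1, ATP5MK and ATP5ME in complex V. No complex II gene passed, and all 11 complex IV values lay below 0 as tested (COX5A at -0.0), with a median of -0.11. The median of all 423 genes under 1000 bases was also -0.11. With the length and GC correction COX5A (0.10), COX5B (0.01), COX6B1 (0.09) and COX8A (0.23) lay above 0, and COX8A was called higher (limma adjusted p = 0.00722). The complex IV median was then -0.13, with 4 genes called lower. ATP5ME, at 297.6 and 302.2 FPKM in the knockdown control and 252.3 and 241.3 after knockdown, fell by 0.28 (SE 0.04, limma adjusted p = 0.000281), the smallest p of the set, and was not called with the length and GC correction (-0.08, limma adjusted p = 0.134). COX6A1 had 507.5 and 509.5 FPKM in the knockdown control and 452.3 and 437.0 after knockdown, without overlap (-0.19, SE 0.03, limma adjusted p = 0.00182). NDUFA11, an accessory subunit of the membrane arm, had 50.9 and 52.5 FPKM against 44.3 and 42.1 (-0.26, SE 0.05, limma adjusted p = 0.0046). ATP5IF1 fell by 0.22 (SE 0.06, limma adjusted p = 0.0163), from 111.9 and 112.5 FPKM to 99.0 and 93.4, and was not called with that correction either (-0.14, limma adjusted p = 0.094). NDUFS1 was the gene called higher (0.24, SE 0.06, limma adjusted p = 0.0143), and its knockdown libraries lay within the range of the vector control and overexpression libraries.

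These counts changed with length, scaling and single libraries. Under 1000 bases 31.4% of subunit genes and 30.7% of all genes were called lower, from 1000 to 2500 bases 7.14% and 17.0%, and above 2500 bases 5.88% and 7.99%. The rho of the knockdown difference with length was 0.42 in the subunit genes and 0.27 over all genes, and with GC content -0.25 and -0.45. After the exon length and GC correction 10 of the 80 genes were lower and 5 higher, against 8.02% and 9.1% of all genes. Only 5 of the 14 were among the lower ones: NDUFA11, NDUFB9, UQCRHL, COX4I1 and COX6A1. The other 5 lower genes (ATP5F1E, ATP5MC3, ATP5MG, COX7A2L and COX7C) and all 5 higher ones were not called as tested, and NDUFS1 lost its call (0.15, limma adjusted p = 0.134). With the length from FPKM steps in the correction, 4 were lower and 12 higher, against 7.88% and 9.88% of all genes. Leaving out 1 library also lowered the shares called over all genes. Without knockdown replicate 2 the count of lower genes was 4, without knockdown control replicate 2 it was 5, and without knockdown control replicate 1 it was 8. NDUFS1 was the higher call, and 0 genes were called higher without knockdown control replicate 2 or either knockdown library. In TPM 11 were lower and 2 higher, against 8.29% and 16.4% of all genes. Of the calls over all genes 66.4% were then higher, against 50.8% in FPKM. Median-of-ratios scaling left 8 lower, against 9.13% of all genes, with 62.0% of calls over all genes higher.

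Most subunit genes were also higher in the knockdown libraries than in the vector control. Both comparisons share the vector control libraries, and this one leaves out the knockdown control libraries that stood apart. With knockdown 73 of 80 genes were higher than in the vector control, against 34.1% of all genes tested, and 0 were lower, against 28.8%, with a median of 0.47 against 0.03. Medians were 0.45 in complex I, 0.42 in complex II, 0.41 in complex III, 0.51 in complex IV and 0.49 in complex V. The 7 genes that did not pass were NDUFA9, NDUFA10, NDUFS1, NDUFV3, SDHA, UQCRC2 and UQCRHL. NDUFB1 gave the largest value (0.81, SE 0.07, limma adjusted p = 1.45e-06). The exon length and GC correction left 66 higher and 0 lower, against 28.4% and 27.1% of all genes, with a median of 0.29. TPM scaling left 65 higher and 1 lower, against 20.1% and 43.0% of all genes.

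NDUFA4L2, a paralog of NDUFA4 known to be induced by hypoxia-inducible factor, lay below the filter. It had 0.299 and 0.183 FPKM in the vector control, 0.210 and 0.269 with overexpression, 1.37 and 2.06 in the knockdown control and 0.630 and 0.544 after knockdown, from 8 to 90 recovered reads a library. The knockdown control libraries were the highest and the knockdown libraries lay between them and the rest. Without the filter, the control difference was 1.12 (SE 0.12, limma adjusted p = 0.000724) and the knockdown difference -0.76 (SE 0.12, limma adjusted p = 0.0153). The knockdown control libraries also had the fewest genes at 0, and the part of that in this low value was not tested. Of the other cell type lists, the sum of the 3 leukocyte markers was 91.1 to 92.0 FPKM in the knockdown control and 50.4 to 52.1 in the vector control, nearly all of it CD68, with PTPRC at or near 0. The 4 fibroblast markers summed to 2.49 to 2.62 against 0.587 to 0.622 and the 2 muscle markers to 0.709 to 0.763 against 0.0 to 0.0526, while the 3 endothelial markers summed to 0.0899 to 0.296 against 1.32 to 1.69. Their part in the subunit differences was not tested.

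Other genes of the pathway were called in both directions between the controls. Against 36.8% higher and 31.8% lower over all genes tested, 30 of 50 assembly factors were higher (60%) and 6 lower (12%) in the knockdown control (median 0.27). LRPPRC, which stabilises mitochondrial messenger RNA, had -1.11 (SE 0.05, limma adjusted p = 3.5e-09), COA7, a complex IV assembly factor, -0.86 (SE 0.05, limma adjusted p = 6.82e-08) and COX17, a copper chaperone, 0.72 (SE 0.06, limma adjusted p = 5.64e-07). Of 15 regulators of mitochondrial biogenesis 3 were higher (20%) and 6 lower (40%), with a median of -0.13. GABPA, the DNA-binding subunit of an ETS factor that acts on many subunit promoters, gave -0.76 (SE 0.07, limma adjusted p = 2.19e-06), PPRC1, a coactivator of the PGC-1 family, -0.58 (SE 0.06) and POLRMT, the mitochondrial RNA polymerase, 0.45 (SE 0.06), the last not called with the length and GC correction (0.13, limma adjusted p = 0.0779). Of 17 genes of the tricarboxylic acid cycle and pyruvate dehydrogenase 8 were higher (47.1%) and 4 lower (23.5%), with a median of 0.08. Of 16 electron carrier and coenzyme Q genes 5 were higher (31.2%, below the share over all genes) and 1 lower (6.25%), with a median of 0.08. Of 29 import and inner membrane genes 19 were higher (65.5%) and 5 lower (17.2%), with a median of 0.25. Among the last, MICOS13, of the cristae junction complex, gave 0.83 (SE 0.05) and OPA1, which fuses inner membranes, -0.96 (SE 0.07). With knockdown against its control, assembly factors had 1 higher (2.0%, against 11.3% over all genes) and 4 lower (8.0%, against 10.9%). SCO2, a copper chaperone of complex IV, had -0.39 (SE 0.07, limma adjusted p = 0.00349), not called with the length and GC correction (-0.17, limma adjusted p = 0.131). GABPA was 1 of 2 of the 15 regulators called higher there (13.3%), at 0.36 (SE 0.07, limma adjusted p = 0.00433). With overexpression 0 genes were called in each of these lists, against 0.0657% higher and 0.0% lower over all genes tested. In the order given, 4 of 50, 2 of 15, 1 of 17, 0 of 16 and 4 of 29 had an unadjusted p below 0.05. Over all genes tested it was 738 of 10648.

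Since many of these genes moved together, their promoters were searched for the letters of 3 factors long linked to respiratory genes: GCATGCGC for NRF1, CCGGAAG for ETS factors such as GABP, and AAGATGGCG for YY1, on both strands. RefSeq promoter windows (GRCh38.p14), from 250 bases before to 50 bases after the start, were matched for 69 of the 86 genes. The NRF1 letters stood in 13 of 69 windows (18.8%), against 5.79% of 8702 windows of genes tested and 3.27% of all 27305 windows. The ETS letters stood in 29%, against 21.0% and 10.7%, and the YY1 letters in 11.6%, against 4.56% and 1.85%. At least 1 motif stood in 44.9% of subunit windows, against 28.4% and 14.6%. The median control difference was 0.53 in the 13 tested genes with the NRF1 letters and 0.56 in the 53 without, 0.64 and 0.52 for the ETS letters (20 and 46 genes) and 0.47 and 0.57 for the YY1 letters (8 and 58 genes).

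Windows are shown for the gene with the largest control difference (NDUFB2, chr7:140696458-140696757, plus strand), a complex II gene with all 3 motifs (SDHB, chr1:17053983-17054282, minus strand), the largest complex V difference as tested (ATP5ME, chr4:674227-674526, minus strand) and the gene that was lower (NDUFS1, chr2:206159395-206159694, minus strand), each 5′ to 3′ along the gene with motif letters in capitals.
NDUFB2: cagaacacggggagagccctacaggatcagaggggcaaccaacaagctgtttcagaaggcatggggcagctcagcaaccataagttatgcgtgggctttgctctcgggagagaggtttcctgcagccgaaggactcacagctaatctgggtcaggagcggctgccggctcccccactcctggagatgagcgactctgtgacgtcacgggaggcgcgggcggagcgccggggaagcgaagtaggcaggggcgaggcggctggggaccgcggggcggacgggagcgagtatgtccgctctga
SDHB: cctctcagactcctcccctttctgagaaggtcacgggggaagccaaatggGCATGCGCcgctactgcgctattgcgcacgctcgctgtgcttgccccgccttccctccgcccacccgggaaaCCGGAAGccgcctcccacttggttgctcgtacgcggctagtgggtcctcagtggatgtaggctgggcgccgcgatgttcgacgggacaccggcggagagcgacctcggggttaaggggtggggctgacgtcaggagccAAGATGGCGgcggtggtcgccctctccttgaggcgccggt
ATP5ME: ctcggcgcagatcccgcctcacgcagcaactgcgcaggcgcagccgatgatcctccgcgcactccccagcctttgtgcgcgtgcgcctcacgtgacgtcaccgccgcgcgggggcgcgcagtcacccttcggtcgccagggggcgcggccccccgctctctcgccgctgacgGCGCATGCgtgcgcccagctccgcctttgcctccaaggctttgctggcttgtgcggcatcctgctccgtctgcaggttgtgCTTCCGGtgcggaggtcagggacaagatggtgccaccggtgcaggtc
NDUFS1: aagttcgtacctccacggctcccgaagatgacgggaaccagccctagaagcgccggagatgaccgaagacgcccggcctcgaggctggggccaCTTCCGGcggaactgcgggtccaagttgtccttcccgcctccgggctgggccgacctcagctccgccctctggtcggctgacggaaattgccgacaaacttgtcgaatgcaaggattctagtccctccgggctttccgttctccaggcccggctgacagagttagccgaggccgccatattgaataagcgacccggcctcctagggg
NDUFB2, with the highest difference, held none of the 3 motifs in this window. SDHB held all 3 on its own strand. ATP5ME held the NRF1 and ETS letters on the other strand, and NDUFS1, the lower gene, held the ETS letters on the other strand.

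In GENCODE release 29 on GRCh38, 39 of the 86 genes share exon bases with another gene, 26 of them with a gene on the opposite strand. NDUFB2 (chromosome 7, 140690777 to 140722790, plus strand) shares exon bases with ADCK2 on its own strand and with BRAF and NDUFB2-AS1 on the other. NDUFS1 (chromosome 2, 206114817 to 206159603, minus strand) overlaps EEF1B2, and ATP5ME (chromosome 4, 672436 to 674338, minus strand) overlaps MYL5. The sources used here do not say whether counting used strand, so reads of such pairs may not be separable.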

How the data were processed

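RNA was sequenced in 8 A549 libraries, 2 per group. The authors deposited FPKM values for 17056 gene symbols, per the file header. The build hg38 (GRCh38), R 3.2.0, HTSeq, featureCounts and HISAT2 are named in the submitters' processing notes, without roles. Of the annotation, filters and strand use the sources used here say nothing. FPKM divides by a library's total, so large changes in some genes shift the others.

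Whole reads were recovered from the FPKM steps for 17055 genes, all 86 subunit genes among them (tolerance 0.02 reads). Testing used limma 3.58.1 (R 4.3.3) on log2(FPKM + 1), two-sided and with a trend, for 10648 genes averaging 1 FPKM or more. All 4 groups shared a fit with 4 residual degrees of freedom, and calls needed an adjusted p (Benjamini-Hochberg) below 0.05. The change of low genes is understated on this scale. Length and GC were corrected per library by natural splines with 4 degrees of freedom each. GENCODE release 29 gave exon length for 99.2% of genes. Deviations of same-numbered libraries correlated at -0.0489 to 0.0622, so libraries were not paired. Between replicates of a group, chi-square over its degrees of freedom was 5.11 to 5.85, above sampling noise, and each library counted once. Scripts were tested on simulated data.

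The subunit genes, pathway lists and promoter motifs were chosen with earlier results of these data known. Genes were named by rule: the extreme called genes of each complex and comparison, subunits with catalytic centres, alternative isoforms, genes called in 3 or more comparisons, the smallest p of each pathway list, and genes below the filter. NDUFA5, NDUFA9, NDUFA10, NDUFB10, NDUFV3 and the exon overlaps were added after values were seen. The values of 1 of the 80 tested genes, which stays in all fits and counts, are not reported here.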

Additional observations from a re-analysis of the deposited data

How the results depend on the processing

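With overexpression 0 subunit genes were called under every alternative tried, and the median log2 fold change ran from -0.014 to 0.072 with 1 library left out. The higher calls of both comparisons against the vector control stayed within 1.5 times under all alternatives. Between the controls the count of lower subunit genes, 1 as tested, was 2 with a minimum of 5 FPKM, median-of-ratios scaling, the replicate block and both voom fits, 4 in TPM, 13 with the step-length correction and 1 to 2 with 1 library left out. Knockdown against vector control gave 1 lower in TPM and 6 with the step-length correction, against 43.0% and 26.9% of all genes. Knockdown against its control gave 9 lower without a filter, 8 with median-of-ratios scaling, and 4 to 12 with 1 library left out (0 to 1 higher). It gave 2 higher in TPM and in the fit to the compared groups alone, 5 with the length and GC correction (with the replicate block 5, and 9 lower), and 12 higher and 4 lower with the step-length correction, where the median turned to 0.03. The replicate block alone gave 16 lower there, and beside the count of 2 above it moved no count by over 1.5 times. Over all genes, knockdown against its control gave 8.1% lower without a filter and 10.8% with the replicate block. With that block and the length and GC correction it gave 7.89% lower. The planned quasi-likelihood count test was not run, and voom took its place after the data were seen, as did the step-length correction. The causes were not tested.

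Sign changes were followed for called genes named by rule and for the smallest p of a complex without a call. They were also followed for genes not called in the knockdown control or knockdown libraries against the vector control. Other subunit genes changed sign too with the length and GC correction. Among them, NDUFB10 went from 0.48 to -0.16 between the controls, and COX8A from -0.05 to 0.23 for knockdown against its control. The genes followed changed sign as follows (log2 fold changes). With the length and GC correction, with and without the replicate block, knockdown against its control gave COX6B1 0.09, NDUFA13 0.01, NDUFB7 0.07 and NDUFS5 0.08. The control difference gave ATP5F1B and NDUFS5 -0.03, COX8A -0.004, CYC1 -0.25, IDH3B -0.01, NDUFA10 0.15, NDUFS1 0.19 and NDUFV1 -0.02. Knockdown against vector control gave ATP5F1D -0.05 and CYC1 -0.14. With the step-length correction, knockdown against its control gave ATP5ME 0.02, COX6B1 0.13, NDUFA13 0.14, NDUFS5 0.06 and UQCRH 0.03. The control difference gave ATP5F1B, COX6B1, SDHA and UQCRH -0.02, ATP5F1D and CYC1 -0.20, ATP5ME -0.11, COX8A and IDH3B -0.01, NDUFA10 0.19, NDUFA13 -0.30, NDUFS1 0.23, NDUFS5 -0.06, NDUFS8 -0.23 and NDUFV1 -0.26. Knockdown against vector control gave ATP5F1D -0.23, ATP5ME and NDUFS8 -0.09, CYC1 -0.11, NDUFA13 -0.16, NDUFS5 -0.004, NDUFV1 -0.07 and UQCRHL -0.22. In TPM the control difference gave NDUFA5 -0.01, NDUFA9 -0.12, NDUFV1 -0.001, SDHA -0.19 and UQCRFS1 -0.02, and knockdown against vector control gave NDUFA10 and NDUFS1 -0.14, NDUFA9 -0.002 and SDHA -0.07. Median-of-ratios scaling gave SDHA -0.04 between the controls, and NDUFA10 -0.004 and NDUFS1 -0.01 for knockdown against vector control. Voom with median-of-ratios scaling gave SDHA -0.01 between the controls, and NDUFA10 -0.004 and NDUFS1 -0.01 for knockdown against vector control. With 1 library left out, SDHA reached -0.04 between the controls, and UQCRC2 0.01 and NDUFA10 -0.001 for knockdown against vector control.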
